A study of Drosophila melanogaster with 4 samples.

Results

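The compact H3K9acS10P regions in the interior of chromosome arm 3L numbered 2609, of 15374 enriched regions in the series-level list. They were chosen from that list by 3 criteria: the sequence 3L, a midpoint between 1000001 and 22543557 in FlyBase r5 coordinates, and a width under 6000 bp. The interior is 21.5 Mb long and leaves out 1 Mb at the telomere-facing end and 2 Mb at the centromere-facing end of the 24543557 bp arm. Chromatin came from whole wild-type Oregon-R embryos of Drosophila melanogaster, collected at 14 to 16 h of development. The design has 2 ChIP samples made with 1 lot of an antibody against H3K9acS10P, and 2 input samples, each the background of 1 ChIP sample. All samples share strain, genotype and stage, and no treatment was applied. The labels do not say whether the ChIP replicates stem from different embryo collections, and their spread may therefore be technical only.

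The H3K9acS10P epitope combines an acetylated lysine with a phosphorylated serine next to it on the tail of histone H3. Acetylation of this lysine is best known from the promoters of active genes. Phosphorylation of the serine is known from condensed mitotic chromosomes and, in interphase nuclei of flies, from the JIL-1 kinase on gene-rich chromatin. The coordinates of 3L run from the telomere to the centromere, where gene-rich euchromatin gives way to repeat-rich heterochromatin. A whole embryo mixes many tissues, so a region in the list may be marked in all cells or in some, and these cannot be told apart.

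The choice of members used the series-level list itself, so its positions, widths and scores are given here as a description. No label or header says how that list was built from the replicates, and it may share reads with their own lists. With 2 replicates and 1 arm, no test of the members was run. Read counts are not part of the lists, which leaves sequencing depth unknown. At the limits of the rule, the widest 3 members spanned 5930, 5938 and 5992 bp, and the narrowest 3 excluded regions spanned 6012, 6025 and 6033 bp. The first member began at 1002539, with a region from 997998 to 1000865 just outside. The last member ended at 22542703, with a region from 22543091 to 22544915 just outside. The width limit left out 127 regions, which held 16.9% of the enriched bases of the interior.

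The members were mostly short, with a median width of 1662 bp and a range from 1001 to 5992 bp. The middle 50% of them lay between 1244 and 2393 bp, and 49 had the smallest width in the list. Their score, the authors' own value for each region, had a median of 0.46 and ranged from 0.07 to 2.05. Its scale is not stated, which limits comparisons of score to regions of the same list. The members covered 24.4% of the interior, at 121 per Mb.

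The same position and width limits gave 758 regions in the list of replicate 1 and 1725 in the list of replicate 2. This was 35.2 per Mb in replicate 1 and 80.1 per Mb in replicate 2, with a mean of 57.6 ± 31.7 per Mb (SD, n = 2). Covered bases made up 7.83% of the interior in replicate 1 and 18.4% in replicate 2, a mean of 13.1% ± 7.51 (SD, n = 2). The count in replicate 2 was 2.28 times that in replicate 1. Their median widths were close, at 2020.5 bp in replicate 1 and 1929 bp in replicate 2.

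Compact regions were found along the whole interior, but their number differed several-fold between the sparsest and the densest stretches. In 43 full windows of 500 kb, the count of members had a lowest value of 15, a median of 60 and a highest value of 103. The mean was 121 ± 38.1 members per Mb (SD over windows). The covered share of a window lay between 5.75% and 42.2%, with a median of 23.8%. Per window, replicate 1 had 2 to 37 regions with a median of 18, and replicate 2 had 9 to 70 with a median of 38.

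**Figure D1:**
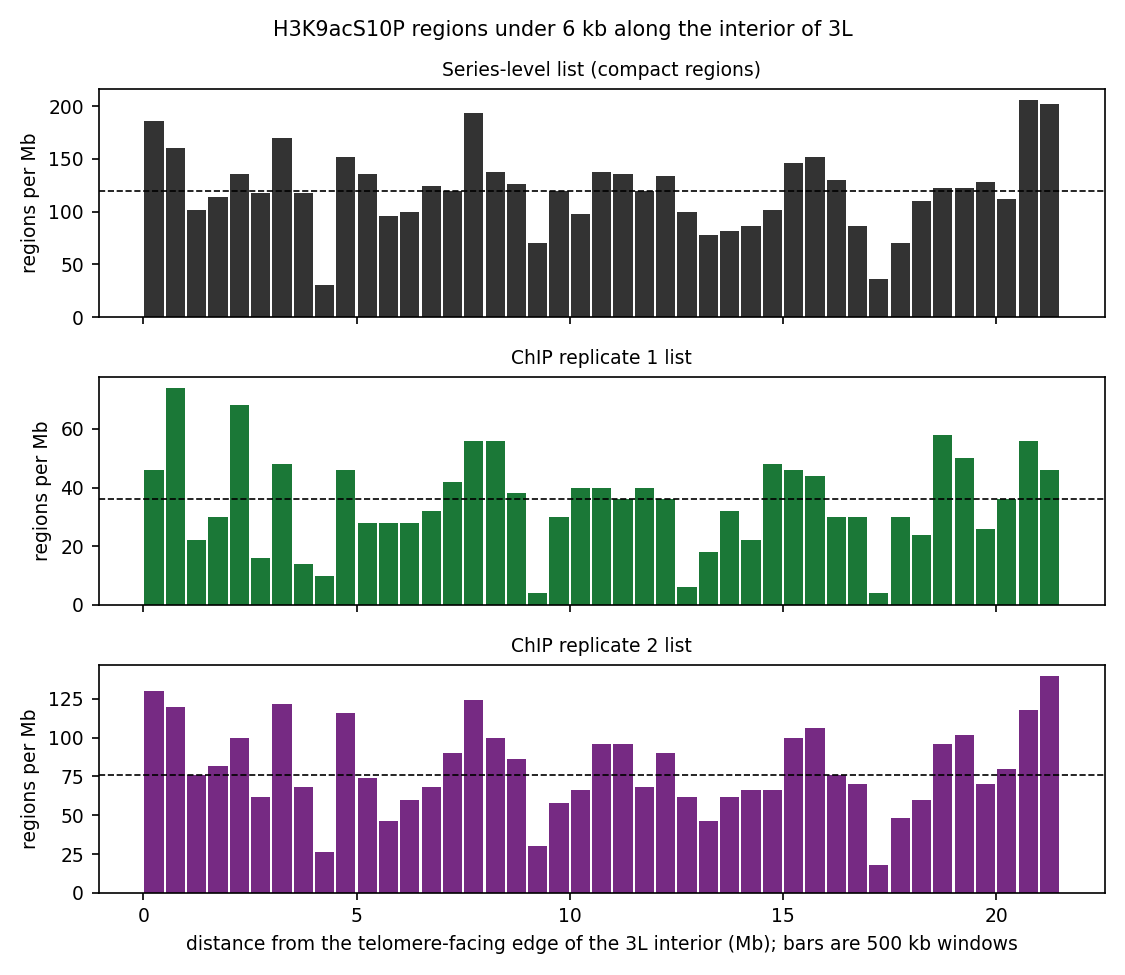
Compact regions per Mb (y axis) in 43 windows of 500 kb, by distance from the telomere-facing edge of the 3L interior in Mb (x axis), for the series-level list, replicate 1 and replicate 2. The dashed lines are the medians over windows, and each panel has its own scale. The densest series-level windows lie at both edges and near 8 Mb, and all 3 lists dip in the windows that begin 4, 9 and 17 Mb from the edge.

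The 2 densest windows lay side by side at the centromere-facing edge of the interior. The window 21500001 to 22000000 held 103 members, 28 regions of replicate 1 and 59 of replicate 2. The next, 22000001 to 22500000, held 101 members, 23 regions of replicate 1 and 70 of replicate 2, the highest count of replicate 2 on the interior. These stretches thus stood high in both replicate lists, although the densest window of replicate 1 was another one, 1500001 to 2000000, with 37 regions.

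The other 3 of the 5 densest windows were spread along the arm. The window 8500001 to 9000000 held 97 members, 28 regions of replicate 1 and 62 of replicate 2. The window 1000001 to 1500000, at the telomere-facing edge, held 93, 23 and 65. The window 4000001 to 4500000 held 85, 24 and 61. Each of the 5 densest windows ranked among the first 10 of 43 in both replicate lists.

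Beyond the edges of the interior the counts parted. The 2 Mb next to the centromere held 54.0 compact series-level regions per Mb, with 12.5 per Mb in replicate 1 and 37.5 in replicate 2. The telomere-facing 1 Mb held 146.0 per Mb, with 57.0 in replicate 1 and 91.0 in replicate 2. In all 3 lists the centromere-facing end was thus sparser than the interior average, and the telomere-facing end denser. How well reads align to repeat-rich sequence near the centromere was not measured, and its part in this difference was not tested.

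Some sparse windows stood alone and others lay in wider stretches with few members. The sparsest, 5000001 to 5500000, held 15 members, 5 regions of replicate 1 and 13 of replicate 2, and 1 region of 6000 bp or more. Its neighbours held 59 members on the telomere-facing side and 76 on the other. The window 18000001 to 18500000 held 18 members, 2 regions of replicate 1, 9 of replicate 2 and no wide region. The windows on both sides of it, with 43 and 35 members, were also below the median of 60.

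Next came 10000001 to 10500000 and 18500001 to 19000000, each with 35 members, and 14000001 to 14500000 with 39. Replicate 1 had 2, 15 and 9 regions in these windows, and replicate 2 had 15, 24 and 23. In replicate 1, 18500001 to 19000000 ranked 25 of 43, so its low rank in the series-level list was not shared there. The other 4 sparsest windows ranked 37 to 43 in both replicate lists.

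Spearman's rho between the replicate counts was 0.81 over the 43 windows, and 0.85 between the covered shares. These are descriptions over windows of 1 genome sequence read with 1 aligner, and windows are not replicates. The number of members followed replicate 2 more closely, with a rho of 0.90, than replicate 1, with a rho of 0.72. Windows rich in members did not hold higher-scoring ones, as rho between the count and the median score was 0.03. The 127 wide regions followed the members only loosely, with a rho of 0.34, and 4 windows held none of them.

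**Figure D2:**
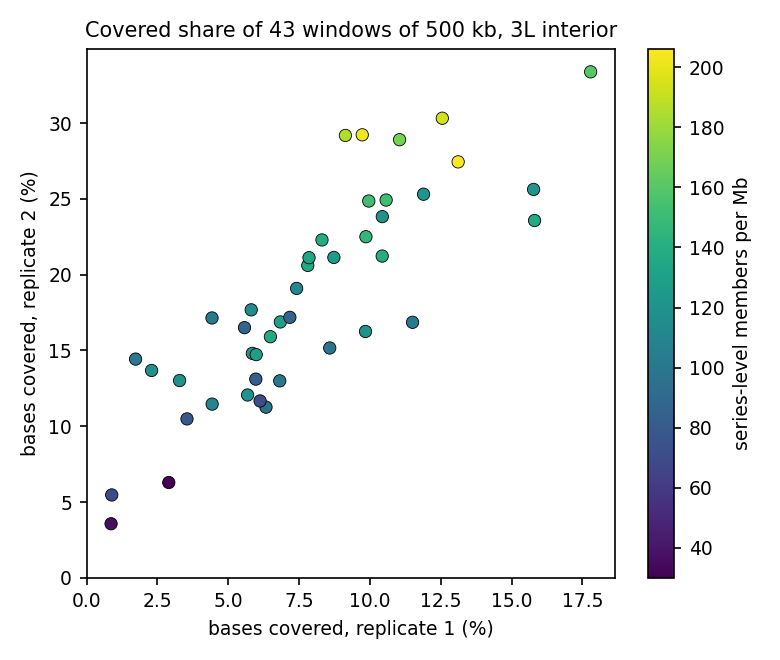
Share of bases covered by compact regions in replicate 1 (x axis, %) and replicate 2 (y axis, %), with each point 1 window of 500 kb and its colour the number of series-level members per Mb. Windows well covered in 1 replicate are mostly well covered in the other, with a Spearman rho of 0.85 over 43 windows.

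The number of members was compared between the sides of the midpoint. The telomere-facing side of the interior, up to the midpoint at 11771779, held 1336 members, or 124 per Mb, and the centromere-facing side 1273, or 118 per Mb. The difference was 5.85 per Mb for the members, 1.86 for replicate 1 and 2.32 for replicate 2. Among members at or above their median score, which numbered 60.6 per Mb, it was 13.1 per Mb. Median scores were slightly lower on the centromere-facing side. Series-level medians were 0.47 on the telomere-facing side and 0.45 on the other, against 0.72 and 0.69 within replicate 1 and 0.66 and 0.63 within replicate 2. Window position and median score had a rho of -0.45 for the members and -0.36 for replicate 2, each over 43 windows, and -0.12 for replicate 1 over the 40 windows with at least 5 regions.

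Replicate support was partial and came mainly from replicate 2. Of the 2609 members, 487 overlapped both replicate lists by at least 1 bp, a share of 18.7% (95% Wilson interval 17.2 to 20.2%). The same share was 22.5% over all series-level regions and 18.5% over those under 6000 bp, so the members' share was close to that of compact regions in general. Replicate 2 was overlapped by 1575 members, or 60.4%, against 62.5% of all series-level regions and 60.2% of the compact ones. Replicate 1 was overlapped by 573 members, or 22.0%, against 25.9% of all and 22.2% of the compact ones. Overlap with replicate 2 alone was found for 1088 members, or 41.7%, against 40.0% of all series-level regions and 41.6% of the compact ones. Overlap with replicate 1 alone was found for 86, or 3.30%, against 3.43% of all and 3.64% of the compact ones. The remaining 948, or 36.3% (34.5 to 38.2%), overlapped neither, against 34.1% of all series-level regions and 36.2% of the compact ones. Regions that lie close together are not independent, which makes these intervals narrower than they should be.

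Seen from the replicates, 661 of 758 compact interior regions of replicate 1, or 87.2%, had a partner in replicate 2. Of the 1725 of replicate 2, 553 had a partner in replicate 1, or 32.1%. Most of the unequal support thus lay in regions that were listed for replicate 2 and not for replicate 1. The shares of regions with a partner were taken over the interior only, not over the whole replicate lists. Whether they are particular to the interior was therefore not tested. Where replicate 2 overlapped a member, it covered a median of 95.9% of the member's bases. Replicate 1 covered a median of 73.7% of the members it overlapped.

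Members in both replicates were the wide and high-scoring ones. Their median width was 3178 bp, against 1791 bp with replicate 2 alone, 1761 bp with replicate 1 alone and 1208.5 bp with neither. They made up 31.2% of the members' bases, and members in neither made up 23.5%. Their median score was 0.63, against 0.44 with replicate 2 alone, 0.40 with replicate 1 alone and 0.44 with neither. Wide regions meet a 1 bp overlap more often whatever they mark, so support and width are not separate measures.

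Support differed by score mainly in the upper classes. With the members divided into 10 equal classes of score, 87.0% of the highest class overlapped both replicates (95% Wilson interval 82.3 to 90.5%), then 37.9% of the ninth and 17.2% of the eighth. The 7 lower classes lay between 2.68% and 10.3%. Members in neither replicate made up 5.36% of the highest class and 22.2% of the ninth, and 37.9 to 46.0% of the other 8. The median width was 3585 bp in the highest class and 1446 bp in the lowest.

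With the members divided into 4 classes of width, support in both replicates was 56.1% in the widest class, 18.1% in the next and 0.46% in the one below it. None of the 653 narrowest members, from 1001 to 1244 bp, overlapped both, which allows a share of up to 0.585% by the Wilson interval. In the widest class, members in the upper part by score overlapped both replicates in 84.0% of cases and those in the lower part in 28.2%, with median widths of 3719.5 and 3099.5 bp. In the second widest class these shares were 26.1% and 10.1%, with median widths of 2070 and 1829.5 bp. The same order was not seen among narrow members, where the upper part by score was slightly the narrower. Median widths of the upper and the lower part were 1061 and 1143.5 bp in the narrowest class, and 1412 and 1450 bp in the second narrowest. In the narrowest class, no member of the upper or the lower part by score overlapped both replicates, and 85.9% of the upper and 78.8% of the lower part overlapped neither. In the second narrowest class, 0.31% of the upper and 0.61% of the lower part overlapped both, and 50.0% and 41.1% overlapped neither.

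**Figure D3:**
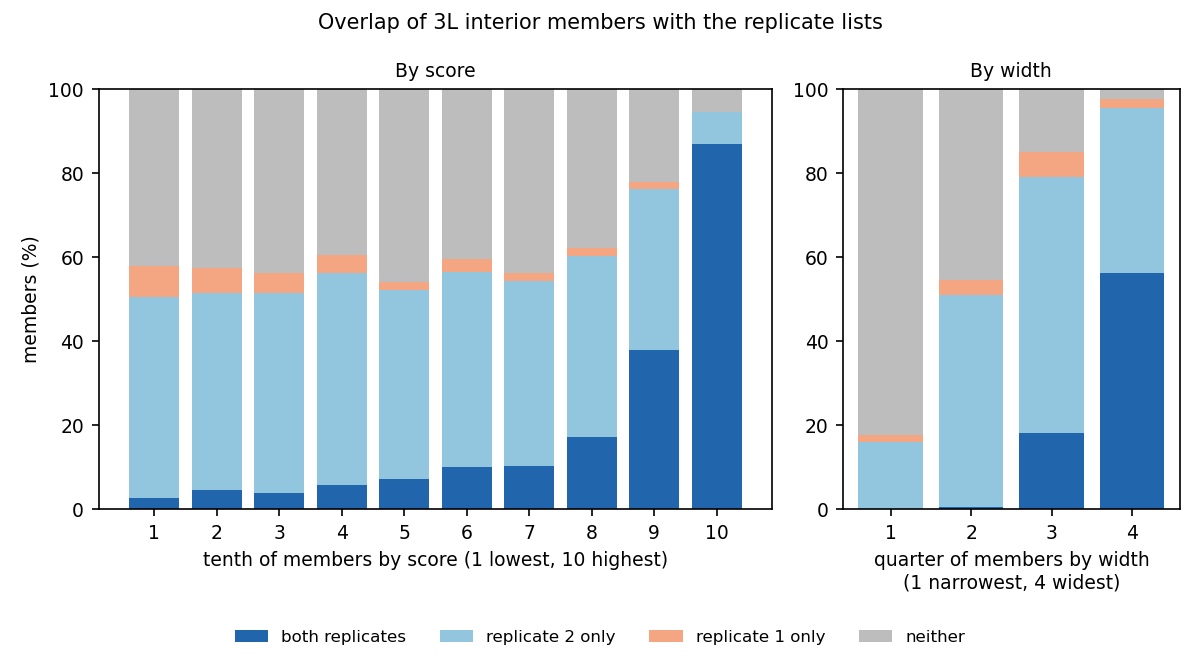
Share of members (y axis, %) that overlap both replicate lists, replicate 2 only, replicate 1 only or neither, by score class (left, 10 classes from low to high) and by width class (right, 4 classes from narrow to wide). Overlap with both replicates reaches 87.0% in the highest score class and 56.1% in the widest width class.

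Part of the unsupported members were narrower than any region the replicate lists hold. The narrowest region of both replicate lists was 1301 bp, and 752 members, or 28.8%, were narrower than that. Of these, 603 overlapped neither replicate, or 80.2% (95% Wilson interval 77.2 to 82.9%), and none overlapped both. Among the 1857 members of at least 1301 bp, 26.2% overlapped both replicates and 18.6% neither.

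Scores were not simply ordered by width. The median score was 0.46 in the narrowest of the 4 width classes, 0.40 in the next, 0.45 in the third and 0.56 in the widest. In replicate 1 the medians from narrow to wide were 0.62, 0.61, 0.79 and 0.91, and in replicate 2 they were 0.56, 0.57, 0.69 and 0.82. The replicate medians were thus close in the 2 narrower classes and higher in the 2 wider ones.

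**Figure D4:**
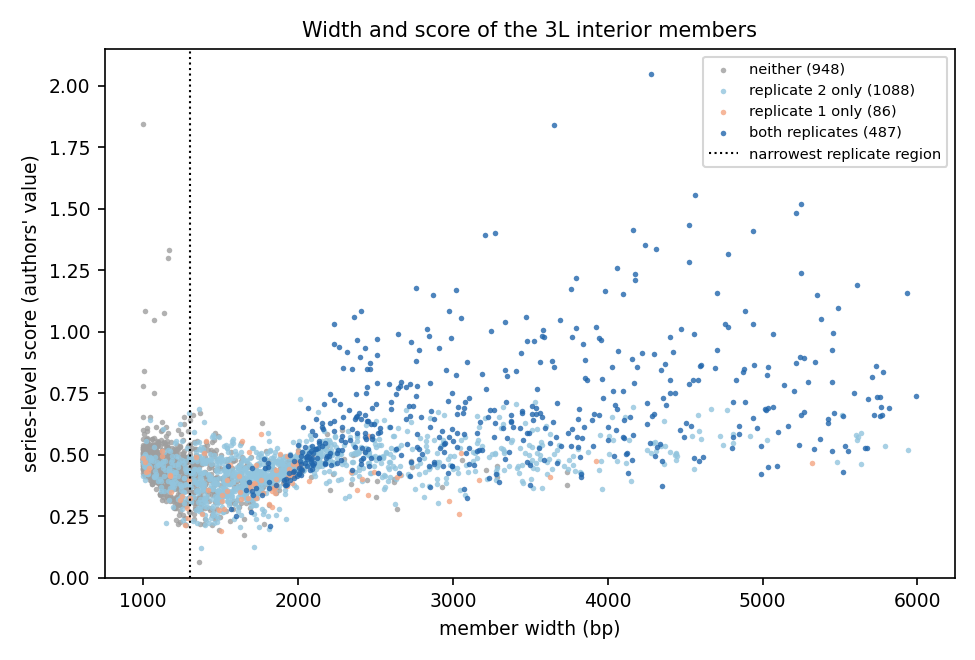
Width in bp (x axis) and series-level score (y axis) of each of the 2609 members, coloured by overlap with the replicate lists, with the dotted line at 1301 bp, the narrowest region of either replicate list. Members in both replicates (487) lie to the right and upward, and a few narrow members with scores above 1 overlap neither replicate.

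The 10 highest-scoring members in both replicates spanned 3.21 to 5.25 kb. The first, 3L 22068100 to 22072382, scored 2.05, and the regions beneath it scored 2.13 in replicate 1 and 2.46 in replicate 2. It belonged to a run of 7 closely spaced members in the dense centromere-facing windows. The second, 3L 1666702 to 1670355, scored 1.84, with 1.74 in replicate 1 and 1.76 in replicate 2. In replicate 2 its region was wider, 5535 bp against 3654 bp for the member and 2752 bp in replicate 1.

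The third, 3L 6782539 to 6787103, scored 1.56 and had no neighbour within 1000 bp. Its region in replicate 1 scored 1.38 and that in replicate 2 scored 1.79, and the 3 widths were close, at 4565, 4630 and 4202 bp. The next 2 were 3L 13033948 to 13039195, scoring 1.52, and 3L 4038001 to 4043217, scoring 1.48. The first of these was 2 regions in replicate 1 and 1 in replicate 2.

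The remaining 5 scored from 1.40 to 1.43. They were 3L 11815109 to 11819633, 3L 13015614 to 13019774, 3L 21529471 to 21534406, 3L 5144815 to 5148088 and 3L 19603869 to 19607076. The member at 5144815 lay in the sparsest window and ended where one of the longest gaps of the interior began. The member at 13015614 lay in a pair of members close to the end of another long gap. A high score was thus also found in a sparse stretch. Of the highest-scoring members in both replicates named so far, only that at 5144815 lay in any of the 5 sparsest windows. The window around it also had the highest median score of all windows, at 0.52 over 15 members.

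Members of the highest score class that overlapped both replicates numbered 227 and were spread over all but 2 of the 43 windows. The most in a window was 16, in 1500001 to 2000000, which was also the densest window of replicate 1. By contrast, 14 members of that score class overlapped neither replicate. Their widths were 1001 to 1364 bp, and 12 of them were narrower than 1301 bp, whereas the narrowest of the 227 spanned 2065 bp. The 5 highest-scoring members in neither replicate were 3L 19201596 to 19202596, scoring 1.84, 3L 9526730 to 9527895, scoring 1.33, 3L 21746546 to 21747708, scoring 1.30, 3L 14304953 to 14305962, scoring 1.08, and 3L 8483097 to 8484233, also scoring 1.08. All 5 were under 1.17 kb wide.

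Positions were compared where a member met exactly 1 region in each replicate. There were 439 such members, with a median width of 3020 bp, against 2046 bp for the regions of replicate 1 and 2557 bp for those of replicate 2. Overlap with the same member by itself limits how far apart the centres can lie, so the distances describe these members only. The centres of the member and the replicate 2 region lay a median of 76.5 bp apart, and those of the member and the replicate 1 region 236.5 bp. Between the replicates the median distance was 254.5 bp, and 90% of distances were under about 1195 bp. The region of replicate 1 lay wholly inside the member in 75.9% of cases, and that of replicate 2 in 52.4%. Over these 439 members the series-level score had a Spearman rho of 0.91 with the score of replicate 2 and 0.72 with that of replicate 1. Between the replicates rho was 0.57, as a description over regions that share a genome and may share reads with the series-level list.

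Few members met more than 1 region of a replicate list. Of the members overlapping replicate 2, 54 met 2 of its regions, and of those overlapping replicate 1, 21 did. In the other direction, 54 regions of replicate 2 and 9 of replicate 1 met 2 or more members. The widest member, 3L 21623495 to 21629486, met 2 regions in each replicate. The second widest, 3L 8345283 to 8351220, met 2 regions of replicate 2 and none of replicate 1. The third, 3L 15228141 to 15234070, met 1 region in each.

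Spacing between neighbouring members was uneven. The gap from one member to the next had a median of 2590 bp, with the middle 50% between 846 and 7636 bp, and 27.8% of gaps were at most 1000 bp. At the other end, 181 gaps exceeded 20 kb and together made up 28.7% of the interior. Gaps were counted between members, so a gap may contain a region of 6000 bp or more.

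The longest gap, 3L 18178976 to 18285176, spanned 106 kb and had no wide region and no region of replicate 1 in it, and 68 bases of 1 region of replicate 2 at its border. The next, 3L 18481927 to 18581484, spanned 99.6 kb, with no wide region, none of replicate 1 and 82 bases of replicate 2. The fourth longest, 3L 5148089 to 5240663, of 92.6 kb, had no enriched base in any list. These 3 stretches were thus nearly empty in both replicates.

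The third and the fifth longest gaps were not empty. The third, 3L 15314784 to 15410335, of 95.6 kb, contained 1 wide region of 6347 bp, which replicate 1 and replicate 2 each marked with 1 region. The fifth, 3L 12927151 to 13013384, of 86.2 kb, contained 1 wide region of 7476 bp, near its centromere-facing border, with 1 region of replicate 1 and parts of 3 of replicate 2. Each is thus a long stretch with a single wide region in it.

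Joining members with gaps of at most 1000 bp gave 1885 runs. Most of them, 1412, were single members, 317 were pairs, 96 held 3 and 38 held 4. The 22 runs of 5 or more held 123 members and spanned 8.77 to 22.2 kb, with 13 on the telomere-facing side of the midpoint and 9 on the centromere-facing side. This number depends on the gap allowed and on the members kept: there were 3 such runs with gaps of at most 500 bp, 83 with gaps of at most 2000 bp, 33 with no width limit and 1 among members at or above their median score.

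The longest run by number held 9 members at 3L 22458567 to 22477618, over 19.1 kb. Its members had a median score of 0.45, and 2 of them overlapped both replicates, 3 replicate 2 alone and 4 neither. Replicate 2 covered 46.4% of the run and replicate 1 17.8%.

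Of 3 runs with 7 members, the one at 3L 1287960 to 1309702 had the strongest support. Its median score was 0.77, 4 members overlapped both replicates and 3 replicate 2 alone. Replicate 1 covered 48.5% of its 21.7 kb and replicate 2 87.5%. The run at 3L 1704186 to 1726409 had a median score of 0.46, and 1 member overlapped both replicates and 3 neither. The run at 3L 22058569 to 22076242 contained the highest-scoring member, at 2.05, but the median score of the run was 0.41.

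Of the 3 runs with 6 members, the first by position was 3L 5575981 to 5590100. It had 2 members in both replicates, 3 in replicate 2 alone and 1 in replicate 1 alone. All 22 large runs met at least 1 region of replicate 2, and 18 met at least 1 of replicate 1. In 16 of them at least 1 member overlapped both replicates. A run of several members meets a list more readily than a single member does. Of the 123 members in these runs, 25.2% overlapped both replicates and 25.2% neither, against 18.7% and 36.3% of all members.

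The share of members in both replicates was larger among those with close neighbours. Single members overlapped both replicates in 14.7% of cases (95% Wilson interval 13.0 to 16.7%), members of pairs in 20.7%, of runs of 3 in 25.7% and of runs of 4 or more in 26.9% (22.0 to 32.4%). Single members overlapped neither in 42.3% of cases, and members of runs of 4 or more in 26.2%. The median width of single members was 1529.5 bp and that of members in runs of 4 or more 1843 bp. Median scores were 0.46 and 0.45. Neighbouring members are not independent, so these intervals are narrower than they should be. A replicate region can also count for more than 1 member, as 54 regions of replicate 2 and 9 of replicate 1 met 2 or more. The parts of width and of such shared regions in the difference between single members and runs were not tested.

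**Figure D5:**
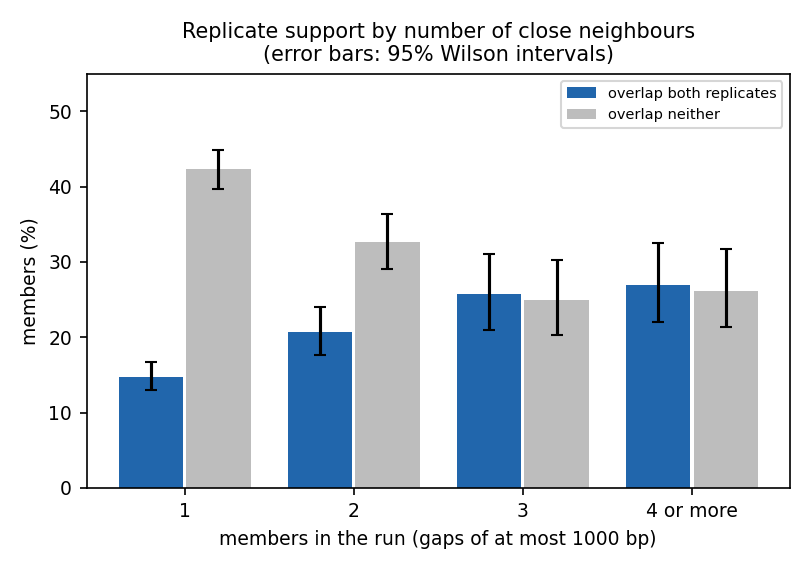
Share of members (y axis, %) that overlap both replicate lists or neither, by the number of members in their run (x axis), with runs joined across gaps of at most 1000 bp and error bars as 95% Wilson intervals. Overlap with both replicates is 14.7% for single members and 26.9% in runs of 4 or more. Members of a run are not independent, so the intervals are narrower than they should be.

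Support also varied along the arm. The share of members overlapping both replicates was lowest in the window 10000001 to 10500000, at 2.86% of 35 members, and highest in 15500001 to 16000000, at 31.4% of 51. The share in neither lay between 18.6% and 62.9%, with a median of 35.6% over windows. It was higher where members were narrow, with a Spearman rho of -0.84 between the median width of a window and the share in neither, as a description over 43 windows. On both sides of the midpoint the share in both replicates was close, 18.3% on the telomere-facing side and 19.0% on the centromere-facing side.

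Beside the interiors of 2L and 3R, trimmed in the same way and with the same width limit, 3L lay in between in density. It had 121 compact regions per Mb, against 105 on 2L and 130.3 on 3R. In replicate 1 the values were 35.2 on 3L, 32.8 on 2L and 38.1 on 3R, and in replicate 2 they were 80.1, 71.9 and 85.8, in the same order. The share overlapping both replicates was 18.7% on 3L and 19.1% on both 2L and 3R. Median widths were 1662 bp on 3L, 1678 bp on 2L and 1673 bp on 3R. Each arm is a single item, so these differences were not tested.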

How the data were processed

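Bowtie 0.12.7 is named as the aligner in the submitters' processing notes, and positions refer to FlyBase r5, per the file headers. Neither the region caller and its threshold nor its use of the inputs is stated in the labels or headers. The 3 deposited lists, 1 for each ChIP replicate and 1 for the series, give the position and the authors' score of each region; the score was used only to rank or describe regions within a list, and its ranks were correlated between lists over matched regions. Depth is unknown, and intervals cover counting of regions only.

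Shares, windows, gaps and runs were computed with SciPy 1.17.1, pandas 2.3.3 and NumPy 2.4.6 under Python 3.11.15, and plotted with matplotlib 3.10.9. Coordinates are 1-based and inclusive. Regions overlapped when they shared at least 1 bp. Windows took regions by midpoint, and 6 members beyond the last full window were left out of them. The overlap, window and run functions were checked on simulated data. No region was given a gene or a sequence, because the only gene table used is for Release 6 of the genome. Named regions followed a rule by score, width, density, run size and gap length, with ties taken by position. The members, the rule and the measures were chosen with earlier results of these data known. Alternatives were a 50% overlap, members at or above their median score, other width limits, windows and run gaps, and each replicate list alone.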

Additional observations from a re-analysis of the deposited data

How the results depend on the processing

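No paired analysis was possible because replicate numbers are shared only between ChIP and input samples, no list of the inputs was used here, and no value comes from a test. The share of members in both replicates was 18.7%, 14.7% with at least 50% of a member covered, 32.5% at or above the median score, 21.7% with no width limit, 10.1% under 3000 bp and 26.2% for members of at least 1301 bp, an alternative chosen after seeing the data. The share that overlapped a single replicate list, whatever the other held, was 22.0 to 60.4%. At or above the median score, members numbered 60.6 per Mb, the densest window held 112 per Mb and the sparsest 18 per Mb, and 1 run held 5 or more members, by construction with fewer members. The difference between the sides of the midpoint was then 13.1 per Mb, larger than the 5.85 per Mb of all members, and the cause was not tested. The densest window then lay at 1000001 and no longer at 21500001, and the sparsest stayed at 5000001. The sparsest window held 20.0 per Mb with 250 kb windows and 53.0 with 1 Mb windows. Gaps of at most 500 bp left 3 large runs and gaps of at most 2000 bp gave 83, and no width limit gave 33. In the replicate lists alone, density was 35.2 to 80.1 per Mb, the densest window 74.0 to 140.0, the sparsest 4.0 to 18.0, covered bases 7.83 to 18.4% and the difference between the sides 1.86 to 2.32 per Mb. A series-level list built from 1 replicate could not be made here. Of 33 recomputed values, 25 moved by more than their spread, which was the Wilson interval for the share in both replicates, 1.5 times for the number of runs and the SD over the replicate lists for the rest. The difference between the sides was the only value that could change sign, and did not in the 3 alternatives run. Other causes were not tested.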

Other observations

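Regions of the replicate lists in the interior that met no member mostly met one of the excluded wide regions. Of 765 interior regions of any width in replicate 1, 180 met no member, and 164 of these met a wide region. In replicate 2 the numbers were 1808, 234 and 181. The highest-scoring of them was in the same place in both lists: 3L 18891286 to 18893766 in replicate 1, scoring 2.05, and 3L 18890431 to 18893812 in replicate 2, scoring 2.53, each inside or across a series-level region of 6000 bp or more. The second highest also coincided, at 3L 8592769 to 8595849 in replicate 1 and 3L 8592530 to 8597960 in replicate 2, scoring 1.55 and 1.76.

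Regions absent from the series-level list altogether numbered 15 in replicate 1, or 1.96%, and 53 in replicate 2, or 2.93%. The highest scores among them were 0.76 at 3L 5436158 to 5437826 in replicate 1 and 0.81 at 3L 3800044 to 3801423 in replicate 2, and both were under 1.7 kb wide. These shares, and the counts of regions that met no member, were taken over the interior only, not over the whole replicate lists. Whether they are particular to the interior was therefore not tested.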
